A study of Mus musculus with 8 samples.

Results

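H3K4me1 is histone H3 carrying a single methyl group on lysine 4. The regions described here are the 75523 H3K4me1 peaks that the authors called in skeletal muscle nuclei, which are all the rows of that list, and every one lay on chromosomes 1 to 19 or X. They made up 75523 of the 189412 rows of the 6 peak lists of the series. The study mapped the glucocorticoid receptor (GR), RNA polymerase II (Pol2), CTCF and 3 histone marks by chromatin immunoprecipitation and sequencing in skeletal muscle of wild-type C57/Bl6J mice, aged 10-12 weeks by the sample labels and 10 weeks by the design text. The same genotype and tissue were used for every library and no treatment is given. There was 1 library per antibody. The H3K4me1 antibody (Active Motif, 39297) was paired with Input1, which was shared with GR, H3K27ac and Pol2, while CTCF and H3K4me3 were paired with Input2. The labels do not say which muscles, or tissue of how many animals, went into a library, nor how deeply it was sequenced.

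Enzymes of the KMT2C and KMT2D family place this mark at enhancers and in the zones beside active promoters, where KMT2A, KMT2B and SET1 enzymes add further methyl groups at the start site itself. An enhancer with H3K4me1 alone is often called primed, and one that also carries acetylation of lysine 27 (H3K27ac) is called active. In muscle, such regions are bound by MYOD, MEF2 and TEAD factors. The nuclei came from whole tissue, which holds myofibres, satellite cells, endothelial cells, fibroblasts and other cells, so a mark present in fewer cells cannot be told apart from a weaker mark in all of them. With 1 library there was no replicate and no test between conditions, and the values describe this library. Intervals are exact Clopper-Pearson 95% intervals and cover counting error only.

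To show what kind of DNA carried the mark, 8 windows of the mm10 (GRCm38) reference are given, 5′ to 3′, with CG dinucleotides in capitals. A distal H3K4me1 peak here has its midpoint over 5 kb from any protein-coding start site. The first 3 windows were the middles of the widest H3K27ac peak inside a distal H3K4me1 peak. They lay in introns of Foxo1, a transcription factor of the atrophy programme (chr3:52300764-52300963, plus strand), Ppargc1a, a coactivator of mitochondrial genes (chr5:51537265-51537464, plus strand), and Fkbp5, a chaperone gene induced by glucocorticoids (chr17:28420423-28420622, plus strand).
Foxo1 acetylated window: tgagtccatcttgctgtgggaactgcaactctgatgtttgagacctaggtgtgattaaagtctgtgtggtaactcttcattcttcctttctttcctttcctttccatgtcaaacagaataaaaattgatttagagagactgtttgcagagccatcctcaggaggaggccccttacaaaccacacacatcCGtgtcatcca
Ppargc1a acetylated window: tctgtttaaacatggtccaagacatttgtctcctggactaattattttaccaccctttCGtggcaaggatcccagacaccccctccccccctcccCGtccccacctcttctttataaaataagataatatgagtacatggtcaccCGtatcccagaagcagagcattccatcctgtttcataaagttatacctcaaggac
Fkbp5 acetylated window: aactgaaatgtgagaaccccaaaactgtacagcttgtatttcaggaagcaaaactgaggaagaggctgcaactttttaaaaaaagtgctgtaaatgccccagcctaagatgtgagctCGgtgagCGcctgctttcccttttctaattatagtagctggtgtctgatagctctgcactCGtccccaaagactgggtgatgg
These 200-base windows held 1, 3 and 3 CG, and the Ppargc1a and Fkbp5 windows also lay in part under a GR peak. The Fkbp5 window, unlike the other acetylated windows, also shared bases with a Pol2 peak. The next pair came from the middle of H3K4me1 peaks with none of the other 5 lists, in an intron of Pax7, the satellite cell factor (chr4:139796874-139797073, plus strand), and at -9498 bases from the start of Acta1, skeletal actin (upstream of it), within an intron of Nup133 (chr8:123904149-123904348, plus strand).
Pax7 window with H3K4me1 alone: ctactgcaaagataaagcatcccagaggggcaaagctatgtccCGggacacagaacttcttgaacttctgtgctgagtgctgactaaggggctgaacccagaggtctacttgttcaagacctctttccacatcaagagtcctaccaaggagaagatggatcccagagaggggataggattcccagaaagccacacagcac
Acta1 window with H3K4me1 alone: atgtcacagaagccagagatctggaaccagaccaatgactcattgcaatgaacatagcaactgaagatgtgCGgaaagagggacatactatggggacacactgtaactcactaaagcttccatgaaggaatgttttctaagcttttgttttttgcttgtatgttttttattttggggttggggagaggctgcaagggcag
Each held 1 CG. The promoters that follow, 250 bases before to 50 after the RefSeq start, are examples of starts with and without a peak over them. Klf15, a glucocorticoid-induced factor (chr6:90462326-90462625, plus strand), started in a gap between H3K4me1 peaks, and the 5′ end of its window touches the upstream one. Ckm, muscle creatine kinase (chr7:19410844-19411143, plus strand), also lay between peaks and is taken from a start inside the GENCODE gene body, and Myog, myogenin (chr1:134289754-134290053, plus strand), lay under a peak.
Klf15 promoter: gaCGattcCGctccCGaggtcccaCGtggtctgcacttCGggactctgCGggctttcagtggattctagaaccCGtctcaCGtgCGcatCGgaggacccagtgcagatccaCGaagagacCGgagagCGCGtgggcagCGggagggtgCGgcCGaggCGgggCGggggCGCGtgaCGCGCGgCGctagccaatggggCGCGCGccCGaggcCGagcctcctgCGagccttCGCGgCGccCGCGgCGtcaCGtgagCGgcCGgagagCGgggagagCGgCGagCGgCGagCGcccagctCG
Ckm promoter: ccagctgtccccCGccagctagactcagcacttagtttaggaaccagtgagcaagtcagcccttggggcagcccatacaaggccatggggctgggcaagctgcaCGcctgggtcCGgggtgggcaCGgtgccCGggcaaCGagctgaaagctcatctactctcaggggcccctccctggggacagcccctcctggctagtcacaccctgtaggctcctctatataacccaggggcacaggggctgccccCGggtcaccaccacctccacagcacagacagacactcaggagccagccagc
Myog promoter: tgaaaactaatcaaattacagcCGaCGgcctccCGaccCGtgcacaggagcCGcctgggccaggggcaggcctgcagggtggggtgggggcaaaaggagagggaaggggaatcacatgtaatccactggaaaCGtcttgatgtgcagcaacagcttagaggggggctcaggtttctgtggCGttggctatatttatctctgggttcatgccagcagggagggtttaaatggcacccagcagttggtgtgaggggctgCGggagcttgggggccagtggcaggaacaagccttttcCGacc
They held 47, 7 and 9 CG in 300 bases. The GC-rich Klf15 start thus stood far from the CG-poor distal windows, and the Ckm and Myog starts lay closer to them.

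Most H3K4me1 peaks were short, and a few wide ones held much of the covered DNA. The median width was 1367 bases, with quartiles of 722 and 2643.5 bases, and the peaks covered 181.8 Mb, or 7.10% of the genome outside assembly gaps. The narrowest width, 266 bases, occurred 1399 times, and the widest peak measured 173041 bases. The 2238 peaks of at least 10 kb were 2.96% of the peaks and held 22.5% of the covered bases, whereas the 10741 peaks under 500 bases held 2.2%. The H3K27ac peaks, for comparison, had a median of 341 bases and covered 23.2 Mb, and the H3K4me3 peaks had a median of 965 bases and covered 20.8 Mb. No neighbouring H3K4me1 peaks lay closer than 1065 bases, against 51 to 103 bases in the other 5 lists, so a shorter interruption cannot be seen in this list. Joining peaks at most 2 kb apart raised the number of at least 10 kb from 2238 to 3840.

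**Figure D1:**
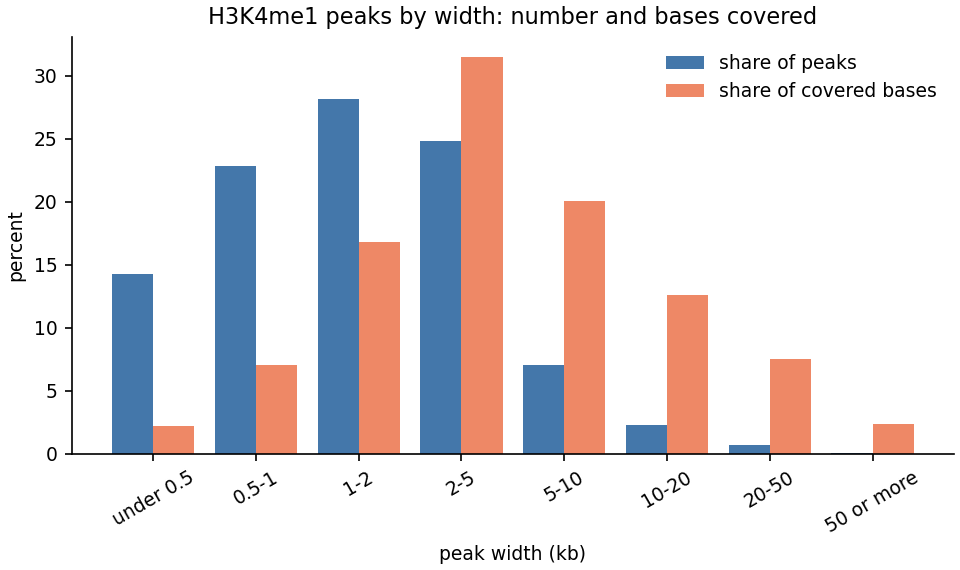
Share of the 75523 H3K4me1 peaks (blue) and of their covered bases (orange) in each class of peak width in kb, on an axis in percent that starts at 0. Peaks of 1 to 2 kb were the largest class by number (28.1%), and those of 2 to 5 kb held the most bases (31.5%).

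The widest H3K4me1 regions differed in what they held. The widest of all (chr9:48661158-48834198, 173041 bases) lay over Zbtb16, a zinc finger repressor that glucocorticoids induce, and held 78 H3K27ac peaks, 192 Pol2 peaks and 32 GR peaks. The second (chr4:148802342-148957929, 155588 bases) took in the whole of Casz1, a zinc finger factor, with 14 H3K27ac and 3 Pol2 peaks. Next came a region (chr12:99253241-99383635, 130395 bases) at Foxn3, a forkhead repressor, with 16 H3K27ac peaks and 1 Pol2 peak. Width and Pol2 content thus differed from region to region: Pol2 peaks lay over 33.8% of the Zbtb16 region, 0.752% of the Casz1 region and 0.110% of the Foxn3 region. A region of 101605 bases lay over Nfix, a muscle nuclear factor I gene, with Lyl1 and G430095P16Rik (chr8:84701784-84803388). Capzb, an actin capping protein of the Z-disc, Tead1, a factor of muscle and Hippo signalling, Tacc2 (overlapped by the Fgfr2 gene model) and Tns1, a focal adhesion tensin, were also among the 10 widest. The eighth, chr6:31064472-31152997, held no protein-coding gene at all. It measured 88526 bases, lay 149657 bases from the nearest protein-coding start, that of Klf14, and held 46 H3K27ac, 28 Pol2 and 17 GR peaks.

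Most H3K4me1 peaks lay away from promoters and inside genes. Of the peak midpoints, 53.8% (95% interval 53.5 to 54.2) lay in introns, which make up 41.2% of the genome, and 25.3% (25.01 to 25.63) lay in intergenic DNA, which makes up 52.1%. Promoter-proximal midpoints, at most 1 kb from the transcription start site (TSS) of a protein-coding gene, made up 13.6% (13.4 to 13.9), in 2.50% of the genome, and 7.23% (7.05 to 7.42) lay in other exons. Per class of DNA, H3K4me1 covered 32.6% of the bases within 1 kb of a TSS, 12.6% of exon bases, 10.8% of intron bases and 2.53% of intergenic bases. The median distance from a midpoint to the nearest TSS was 16166 bases. The H3K4me3 list, placed in the same way, had 69.7% of its midpoints within 1 kb of a TSS, and the H3K27ac list 39.3%. Counting any base of a peak within 1 kb of a TSS gave 21.9% in place of 13.6%, and widening the limit to 5 kb gave 28.6%.

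Intronic and intergenic peaks also differed in width. Intronic peaks had a median of 1489 bases and supplied 1799 of the 2238 peaks of at least 10 kb, against a median of 1124.5 bases and 175 wide peaks in intergenic DNA. The 9767 peaks that held a TSS (12.9% of all) had a median of 2513 bases, and those that held none had a median of 1230 bases. Within genes the first introns were covered most. In the 14324 genes with at least 4 introns, H3K4me1 covered 22.4% of the bases of the first intron, 15.5% of the second, 11.8% of the third and 7.76% of later introns other than the last, and 8.56% of the last intron. Over intron bases more than 5 kb from any protein-coding TSS the values were 18.1% in the first, 13.9% in the second, 10.8% in the third, 7.20% in later introns and 7.93% in the last. Among the peaks at 1 to 5 kb from a TSS, 37.4% lay on its upstream side.

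At start sites with H3K4me3 the mark was found more often downstream than upstream. Of 31107 protein-coding TSS positions with an H3K4me3 peak within 1 kb, 52.4% (51.9 to 53.0) lay under an H3K4me1 peak. The share covered was highest at 900 bases downstream (63.7%). Its upstream maximum, 52.1% at 200 bases from the start, was no higher than the share at the site itself. At 5 kb the share was 28.6% downstream and 14.5% upstream. Over the same sites H3K4me3 was highest at 100 bases downstream, with 91.1%, and H3K27ac at 200 bases downstream, with 73.6%. At the 22945 TSS without H3K4me3, H3K4me1 covered 17.8% at the site and 10.1% at 5 kb downstream. The maximum of H3K4me1 thus lay farther downstream than those of H3K4me3 and H3K27ac.

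**Figure D2:**
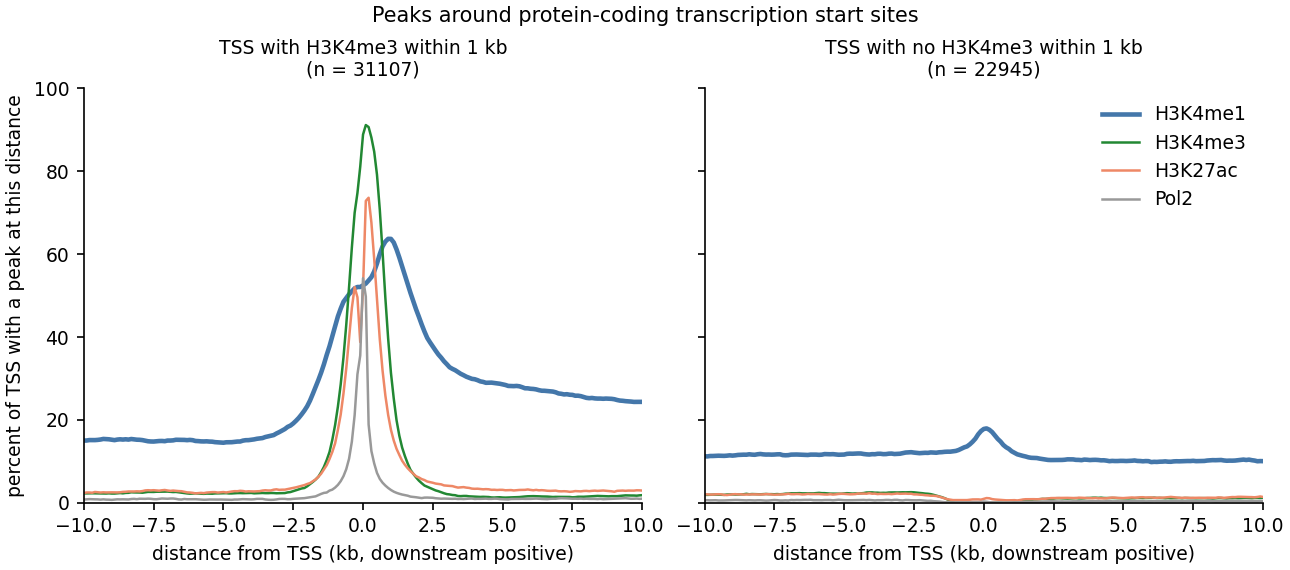
Percent of protein-coding TSS that lay under a peak of each list, by distance from the TSS in kb (downstream positive), for TSS with (left, n = 31107) and without (right, n = 22945) an H3K4me3 peak within 1 kb. H3K4me1 (thick blue line) reached 63.7% at 900 bases downstream on the left and reached 17.95% on the right.

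Among start sites with H3K4me3, those with H3K4me1 peaks on both sides were most often occupied by Pol2. Among the TSS with H3K4me3, 28.6% (28.1 to 29.1) lay between H3K4me1 peaks within 5 kb on both sides, 12.7% had one on the downstream side only, 3.06% on the upstream side only and 3.18% on neither. Pol2 lay within 1 kb of 95.9% of the flanked sites and 65.2% of the covered sites. For sites with a peak downstream only, upstream only or on neither side, the Pol2 shares were 85.1%, 68.8% and 51.4%. H3K27ac lay within 1 kb of 98.4% of the flanked and 78.7% of the covered sites, and GR within 1 kb of 90.7% and 58.1%. Alternative starts of 1 gene were counted as separate sites. The H3K4me3 peak was also wider at the flanked sites, with a median of 1765 bases, than at the covered sites, with 1165 bases. The gap over flanked sites had a median of 1559 bases, close to the 1065 bases below which no gap occurred, and 72.0% of these gaps were under 2 kb. Sites with a narrower gap are therefore among the covered ones, and joining peaks at most 2 kb apart raised the covered share from 52.4% to 73.0%. Of the H3K4me3 peaks themselves, 51.2% lay wholly inside an H3K4me1 peak, 31.2% in part and 17.6% not at all.

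H3K4me1 lay in most protein-coding genes, but usually over a small part of the body. Of 21755 genes, 15319 (70.4%) had at least 1 covered base between the first start and the last end, and 6436 had none. The median was 7.72% of the body, the quartiles were 0 and 29.0%, and 3014 genes (13.9%) were covered over at least 50%. Genes with H3K4me3 within 1 kb of a TSS, 61.2% of all genes, had the mark in 95.7% of cases, and genes without it in 30.5%. Within the H3K4me3 genes, the median was 21.5% of the body with Pol2 at a TSS and 8.43% without. Among H3K4me3 genes of 50 to 100 kb, where length differs less, the medians were 15.05% with Pol2 and 4.51% without. Asking for 10% of the body in place of 1 base left 11789 genes without the mark.

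The first gene by covered bases was the gene model Gm20388, which spans 4.43 Mb with 71 other protein-coding genes inside it, and the second was the 2.96 Mb model of Fgfr2, with 29 inside it, so neither is a gene-specific value. After these came Rora, a nuclear receptor of the clock, with 372499 covered bases (50.7% of its body), Gse1, a corepressor subunit, with 328287 (93.0%), and Msi2, an RNA-binding protein, with 323427 (85.3%). Kcnma1, the BK potassium channel, had 288830 covered bases, Foxn3 287506 and Sox6, a factor that represses slow fibre genes, 270991. Pde4d, a cyclic AMP phosphodiesterase, and Rbfox1, a muscle and neuron splicing factor, had 256999 and 256350, but only 17.1% and 16.8% of their bodies. Among genes of at least 10 kb, 38 were covered from end to end by H3K4me1. The longest of these were Casz1 (150461 bases), Rara, the retinoic acid receptor alpha (47125), Nudt3 (44114), Ptp4a3 (35622) and H6pd, which supplies NADPH for glucocorticoid activation in the endoplasmic reticulum (29549). Il4i1, Ehd1, Cacnb1, the muscle calcium channel beta subunit, Hr and Bmf followed with 24423, 23372, 21527, 21337 and 20931 bases.

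The longest genes with no H3K4me1 included adhesion and synapse genes of neurons, such as Cntn5, Cntn4 and Cdh18. The contactin and cadherin families were not counted as a whole. Csmd1 (1643050 bases), Il1rapl1 (1374776), Cntn5 (1243885), Frmpd4 (1105923), Nrg3 (1104137) and Cntn4 (1021651) had none anywhere in the body, and neither had Sntg1, Cdh18, Tenm1 or Spag16. None of these 10 genes had H3K4me3 at a start. The nearest peak lay 75 bases from Nrg3 and 1437316 bases from Cdh18. Of the 6436 genes with none, 2970 lay over 100 kb from any peak and 5868 had no H3K4me3 at a start. A smaller set of 341 genes had H3K4me3 and Pol2 at a start and still no H3K4me1 in the body, and 211 of these lay within 5 kb of a peak. Farther off, and named after their values were seen, were Cox7c, a cytochrome oxidase subunit (754096 bases from the nearest peak), the imprinted genes Snurf and Snrpn (727043 and 714089) and Bche, butyrylcholinesterase (578040).

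Muscle gene lists stood above all genes in the share of the body under H3K4me1. These lists and those below were chosen with earlier results of these data known. Among genes with both H3K4me3 and Pol2 at a start, 96.6% had the mark, with a median of 21.5% of the body. The slow sarcomere median, 22.04%, lay close to that value. The excitation-contraction coupling genes, which carry the signal from the membrane to calcium release, had the mark in 18 of 18, with a median of 71.8% of the body, beside 70.4% of all genes and a median of 7.72%. Ryr1, the calcium release channel, was covered over 88.7% of 121836 bases in 6 peaks, Jph1, a junctophilin, over 63.3% and Jph2 over 92.4%. Fast or common sarcomere genes had the mark in 21 of 24, with a median of 54.9%, and 22 of 24 had H3K4me3 at a start (61.2% of all genes). Ttn, titin, was covered over 71.1% of its 278568 bases in 29 peaks, and Neb, nebulin, over 66.3%. The slow sarcomere genes had the mark in 10 of 12 with a median of 22.04%, and none reached 50%, a level passed by 13.9% of all genes and 54.2% of the fast or common list. The members with most covered bases were Mybpc1 (15833 bases, 18.2% of the body), Tnni1 (9106, 28.9%) and Myl3 (9068, 32.5%), and Myh7, the slow myosin heavy chain, and Myoz2 had none. Dystrophin complex and sarcolemma genes had the mark in 16 of 16 with a median of 35.7%, led in covered bases by Sgcd (85066), Dysf (77836) and Dtna (60603).

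**Figure D3:**
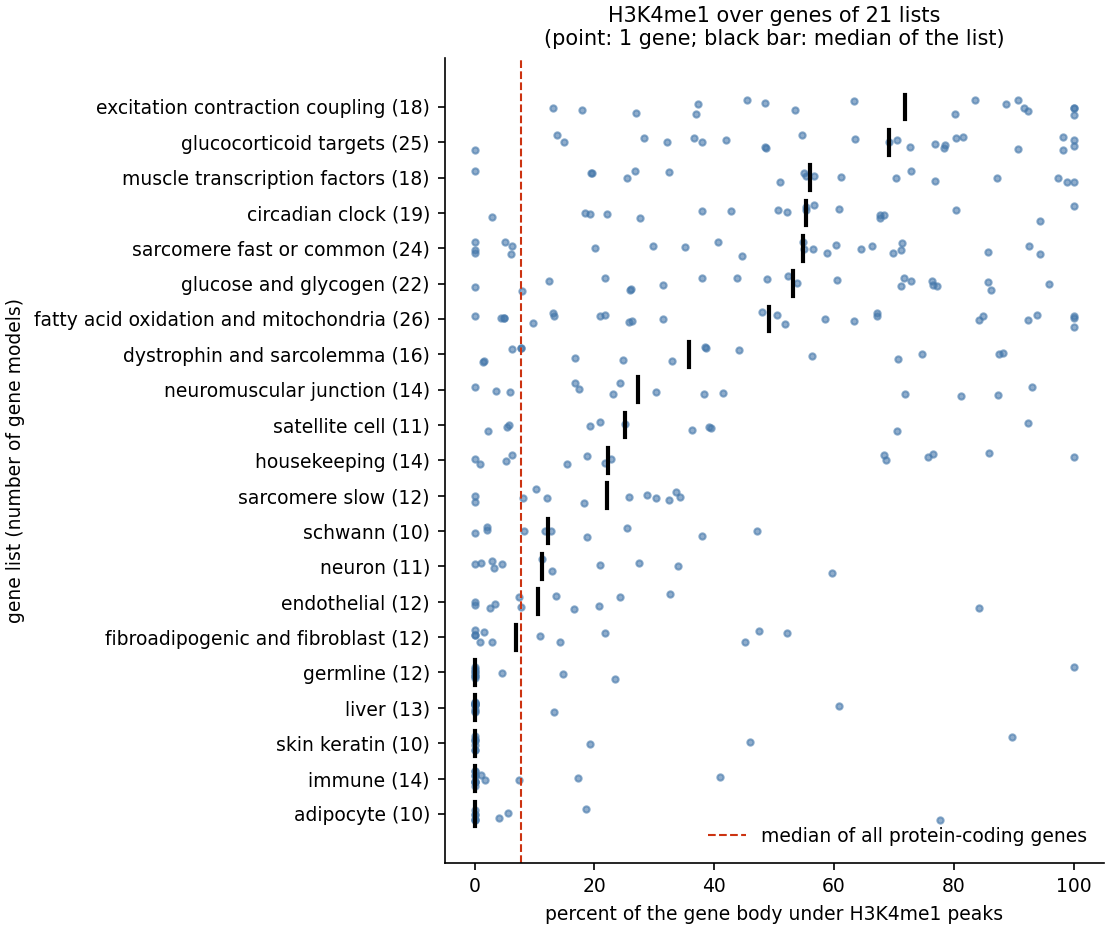
Percent of the gene body under H3K4me1 peaks for each gene (point) of 21 lists, with the median of each list (black bar) and the median of all 21755 protein-coding genes (dashed line, 7.72%). The list medians ran from 0 for the liver, immune, adipocyte, skin and germline lists to 71.8% for excitation-contraction coupling.

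Dmd, the dystrophin gene, carried H3K4me1 at 1 end. Its 2257272-base body on X held 32 peaks that covered 34138 bases (1.51%). Of these, 30 lay in the first 20% of the body, the last of them centred 406 kb from the start. Dmd peaks were narrow, from 266 to 2894 bases. The remaining 1851 kb held 2 peaks. Ttn, by contrast, was covered in broad blocks of up to 33211 bases.

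A few muscle genes that lay almost wholly under Pol2 had little or no H3K4me1 within them, while others were covered over much of the body. Myh4, the fast IIb myosin heavy chain, lay under a single Pol2 peak over 100% of its 22418 bases, with H3K4me3 and H3K27ac at its start, and had no H3K4me1. The nearest H3K4me1 peak ended 2624 bases upstream and was 9345 bases wide with 4 H3K27ac peaks. Its neighbours had less or no Pol2. Myh2 had 5.01% of the body under H3K4me1 and 0.744% under Pol2, Myh1 had 20.2% and 33.1%, and Myh8, a perinatal form, had none of either. Tnnc2, fast troponin C, with 95.2% of the body under Pol2, had no H3K4me1. Tcap, the titin cap protein telethonin, had Pol2 at its start and no H3K4me1 either. The share of its 1143-base body under Pol2 is not given here. The nearest H3K4me1 peaks lay 91 bases from Tnnc2 and 581 bases from Tcap. More of the body was covered in Acta1 (54.7%), in Atp2a1, the calcium pump SERCA1 (36.9%), and in Ckm (59.9%). The 2 Ckm peaks lay either side of an uncovered stretch from 2.78 to 8.57 kb after the annotated start, which holds the RefSeq promoter printed above. Over all genes of at least 2000 bases, grouped after the data were seen by the share of the body under Pol2, the median H3K4me1 coverage was 0.247% with no Pol2, 15.3% up to 2% Pol2, 41.1% from 2 to 10% and 72.3% from 10 to 50%. It was 66.2% in the 23 genes from 50 to 75% Pol2 and 46.9% (quartiles 29.3 and 67.2%) in the 36 genes above 75%. Lowest among these 36 were Myh4, Tnnc2, Tob1 and Txnip with 0, Tnni2, fast troponin I, with 6.19% and Jun with 10.9%, while Hspb7, a muscle heat shock protein, was covered over 100% and Pvalb, parvalbumin, over 69.1%. Gene length differed between these groups, with medians of 14897 bases without Pol2 and 4562.5 above 75%, and its part in the pattern was not tested.

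Regulators of muscle identity carried broad H3K4me1, beside 70.4% of all genes with the mark and a median of 7.72% of the body. For genes with both H3K4me3 and Pol2 at a start, these values were 96.6% and 21.5%. The lists here too were chosen with earlier results of these data known. In the muscle transcription factor list 17 of 18 genes had the mark, with a median of 56.0%, led in covered bases by Tead1 (174711), Nfix (99352) and Mef2c (90057). Myod1, the myogenic master regulator, was covered over 87.2%, and its start lay in a gap between an 11590-base peak that ended at -1.201 kb, upstream of the start, and a 4096-base peak that began 0.336 kb downstream. A further peak of 8496 bases lay upstream of Myod1, from -29.4 to -20.9 kb, and held 4 H3K27ac and 2 GR peaks but no H3K4me3 or Pol2. Myog was covered over its whole body by a peak of 5482 bases, with 2 H3K27ac peaks and no H3K4me3 or Pol2. Myf5 had 26.7% of its 3227 bases covered and none of the other 5 lists in the body. Myf6 was the member with none, and its nearest peak lay 1310 bases away. Mstn, myostatin, which limits muscle growth, also had none, although H3K4me3, H3K27ac and Pol2 were at its start, and its nearest peak of 279 bases ended 725 bases upstream. At the neuromuscular junction 13 of 14 genes had the mark with a median of 27.3%, led in covered bases by Dok7 (28925 bases, 93.1% of the body), Lrp4 (17014, 30.2%) and Colq (15757, 23.1%), and Chrng, the fetal acetylcholine receptor subunit, had none. Chrna1, the acetylcholine receptor alpha subunit, had 17.4% covered, by a 3302-base peak over its start with none of the other 5 marks.

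Metabolic, clock and hormone-responsive genes were widely covered too, read against the 70.4% of all genes with the mark and their median of 7.72%. For genes with both H3K4me3 and Pol2 at a start, these values were 96.6% and 21.5%. The glucocorticoid target list had the mark in 24 of 25 genes, with a median of 69.1%, and was led in covered bases by Zbtb16 (178718 bases, 98.2%), Foxo3 (66905, 70.5%) and Foxo1 (66588, 78.4%). The exception was Tat, a liver enzyme, 26253 bases from the nearest peak. Klf15 was covered over 90.7%, Fkbp5 over 28.3% in 16 peaks, Pdk4, the pyruvate dehydrogenase kinase, over 38.0%, and Nr3c1, which encodes GR, over 51.5%. The ubiquitin ligase genes of atrophy, Fbxo32 and Trim63, were covered over 69.1% and 72.6%, each in 1 peak. That of Fbxo32 ran from 1.30 to 28.3 kb after the start and held 41 Pol2 peaks. Clock genes had the mark in 19 of 19 with a median of 55.4%, led in covered bases by Rora (372499), Arntl (64936) and Npas2 (37362). The glucose and glycogen list, in which Aldoa matched 2 gene models, had it in 21 of 22 with a median of 53.1%, led in covered bases by Hk2 (35207 bases, 71.2% of the body), Ppp1r3a (31537, 76.4%) and Gpi1 (24859, 85.7%), and Txnip had none. Slc2a4, the insulin-responsive glucose transporter GLUT4, was covered over 71.7%. Fatty acid oxidation and mitochondrial genes had it in 25 of 26 with a median of 49.2%, led in covered bases by Ppargc1b (86780 bases, 84.8% of the body), Ppard (63566, 92.4%) and Esrrg (59650, 9.84%), and Cox6a2, whose nearest peak lay 124 bases away, had none. Ppargc1a was covered over 25.7% in 8 peaks. Housekeeping genes had the mark in 13 of 14 with a median of 22.3%, led in covered bases by Ywhaz (17947), Pgk1 (12710) and Polr2a (5629).

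Lists for other cell types, with neurons, liver, epidermis and germline among them, ranged from a median of 25.05% of the body down to 0. The members named for each list are those with most covered bases. Of all genes, 70.4% had the mark, with a median of 7.72% of the body. Satellite cell genes had the mark in 11 of 11, with a median of 25.05%, and Pol2 was at the start of 4 of 11, against 46.8% of all genes. Pax7 was covered over 39.4% by 11 peaks, with H3K4me3 and without Pol2 or H3K27ac, Sdc4 over 92.3% and Itgb1 over 25.05%. Endothelial genes had it in 10 of 12 with a median of 10.6%, led in covered bases by Pecam1 (31427 bases, 32.6% of the body), Tek (9962, 7.34%) and Eng (8755, 24.3%), and Emcn and Tie1 had none. With 10% of the body required, the endothelial count was 6. Fibroblast and fibro-adipogenic genes had it in 9 of 12 with a median of 6.88%, close to all genes. They were led in covered bases by Fbn1 (29640), Gsn (23240) and Col1a1 (8771), and Lum, Ly6a and Postn had none. Schwann cell genes had it in 9 of 10 with a median of 12.3%, led in covered bases by Mbp (28173), Pmp22 (14431) and Ncam1 (6139). Neuronal genes, none of which had Pol2 at a start, had it in 10 of 11 with a median of 11.3%, led in covered bases by Rbfox3 (12440 bases, 2.95% of the body), Gad1 (5513, 11.3%) and Syt1 (5243, 1.02%). Snap25, the synaptic fusion protein, was the exception, and 6 of 11 had 10% of the body covered.

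The 5 remaining lists all had a median of 0, against 7.72% over all genes, of which 70.4% had the mark. Immune genes had the mark in 5 of 14, led in covered bases by Csf1r (2338 bases, 7.41% of the body), Cd3e (1889, 17.3%) and Ptprc (1884, 1.67%), and those with none included Adgre1, Cd3g, Cd4, Cd79a, Cd8a, Ms4a1, Ncr1 and S100a8. The immune count was 8 with 5 kb added on each side of the body and 2 with 10% of the body required. Adipocyte genes had it in 4 of 10, led in covered bases by Lipe (14909 bases, 77.7% of the body), Pparg (5236, 4.04%) and Plin1 (2351, 18.5%), and Adipoq, Cfd, Cidec, Fabp4, Lep and Retn had none. With 10% of the body required, 2 adipocyte genes had it. Liver genes had it in 2 of 13, Ttr (13.2%) and Apoa1 (60.8%), and in 5 with 5 kb added on each side. Alb, serum albumin, lay 91906 bases from the nearest peak, and Afp, Ahsg, Apob, Cyp2e1, Cyp3a11, Cyp7a1, F9, Fgb, Hnf4a and Serpina1a had none either. Epidermal genes had it in 3 of 10, Lor (89.6% of the body), Krt10 (45.9%) and Krt15 (19.2%), and Dsg1a, Flg, Ivl, Krt1, Krt14, Krt5 and Krtdap had none. Germline genes had it in 4 of 12, led in covered bases by Zp1 (1487), Tnp2 (725) and Prm2 (704), and in 8 with 5 kb added on each side, while Ddx4, Figla, Nobox, Prm1, Sycp1, Tnp1, Zp2 and Zp3 had none in the body. Each of these lists thus had members with and without the mark. Set against the tissue label, skeletal muscle, the median was 71.8% of the body for excitation-contraction coupling genes and 0 for these 5 lists. The lists differed in gene length, with medians from 4279 bases for the epidermal to 54110 bases for the sarcolemma list, and length was not held constant in these counts.

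Large gene families differed widely, and are read against the 70.4% of all genes with the mark and their median of 7.72% of the body. Olfactory receptor genes, expressed in the nose, had the mark in 14 of 1135, and 1040 of them lay over 25 kb from any peak, against 20.3% of all genes. The vomeronasal receptors had it in 1 of 329, with 320 over 25 kb away. Beta-defensin genes had it in 0 of 42 and alpha-defensin genes in 0 of 22, while keratin-associated protein genes had it in 6 of 57, keratins in 11 of 49 and taste receptors in 3 of 38. The serine proteinase inhibitors had it in 18 of 61 and the cytochromes P450 in 31 of 99. At the other end all 39 Hox genes, the regulators of body axis position, had it, with a median of 43.5% of the body, and Pol2 was at the start of 10, against 46.8% of all genes. Cytosolic ribosomal protein genes had it in 87 of 98 with a median of 50.1%, proteasome genes in 38 of 40 with 28.1%, and mitochondrial carriers of the Slc25 family in 42 of 47 with 23.9%. Closer to all genes in median were potassium channels with the mark in 30 of 35 and a median of 9.60%, Zfp genes with 292 of 394 and 6.55%, myosin heavy chains with 9 of 14 and 5.12%, and collagens with 41 of 44 and 4.46%.

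H3K4me1 peaks were dense in some regions and absent from others of many megabases. Of 2570 windows of 1 Mb, 346 (13.5%, 12.2 to 14.8) held no covered base, and the median window was covered over 3.59%. The 10% of windows most covered held 38.3% of the covered bases. The densest window, chr8:120000001-121000000, was covered over 56.0%, with 73 peaks around Gse1, Irf8 and Cox4i1. It was followed by chr11:88000001-89000000 with Msi2, Srsf1 and Akap1 (54.1%), and by the gene-dense chr10:80000001-81000000 with 55 genes, among them Stk11, Jsrp1, Cirbp and Gamt (51.7%). Next were chr11:117000001-118000000 with Socs3, Sept9 and Tnrc6c (50.03%) and chr2:167000001-168000000 with Cebpb, Ptpn1, a negative regulator of insulin signalling, and Snai1 (50.01%). With windows of 500 kb the share without the mark was 22.2%.

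Stretches of at least 1 Mb without a peak numbered 307 and made up 24.9% of the genome outside gaps. The longest was chrX:23720521-35904163, with 49 protein-coding genes that include Slx and the Spin2 and Btbd35 families, none with H3K4me3 at a start. Of its 12183643 bases, 10453033 lay outside assembly gaps. The next were chrX:120291818-128806413 with the Cldn34c genes and Nap1l3, and chrX:85879265-93286430 with Il1rapl1, Nr0b1 and the Mageb genes. On autosomes the longest were chr1:98096395-104768341 with Cntnap5b and Slco6d1, and chr15:13285652-19157081 with the cadherins Cdh9 and Cdh10. The stretch chr2:85284916-90474947, named after its values were seen, held 234 protein-coding genes, of which 227 were olfactory or vomeronasal receptors.

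The chromosomes differed, and X stood apart. Autosomes were covered over 4.99% (chromosome 3) to 12.8% (chromosome 11), with a median of 7.74%, and the X chromosome over 1.18%. Across the 19 autosomes the percent covered went with the number of protein-coding genes per Mb (Pearson r = 0.819, Spearman rho = 0.835, given as a description since all chromosomes come from 1 library). X had 5.80 genes per Mb, within the autosomal range, and 38.3% of its genes had the mark against 71.9% on autosomes. Of all H3K4me1 peaks 1.62% lay on X, compared with 3.22% of H3K4me3, 2.03% of Pol2, 1.68% of H3K27ac, 1.143% of GR and 0.998% of CTCF peaks. The labels do not give the sex of the animals, and its part in the low share on X was not tested.

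**Figure D4:**
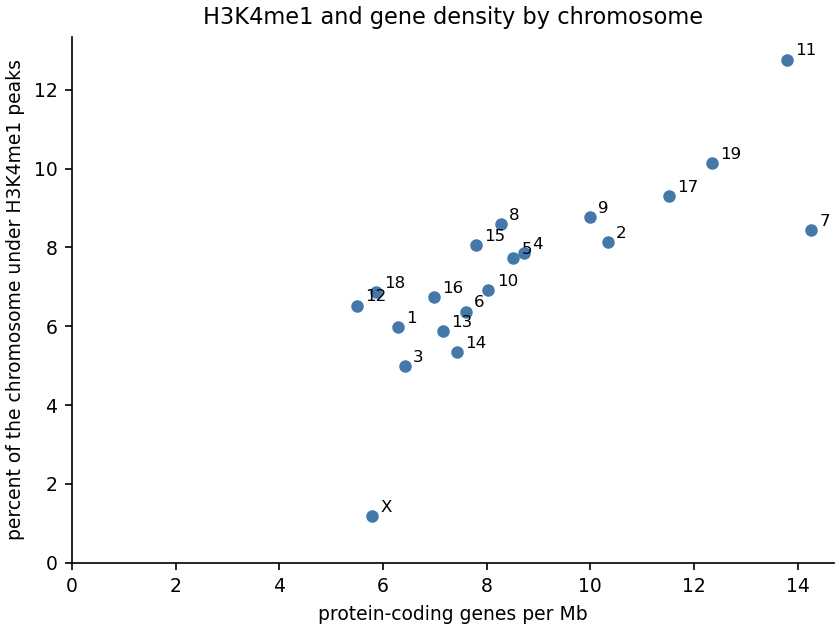
Percent of each chromosome outside assembly gaps under H3K4me1 peaks against its number of protein-coding genes per Mb, 1 labelled point per chromosome. Chromosome 11 was highest (12.8%) and X lowest (1.18%), below chromosome 3 (4.99%).

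Most peaks carried H3K4me1 alone. Of the 75523 peaks, 65.1% (64.7 to 65.4) shared no base with any of the other 5 lists, with a median width of 1058 bases and 41.3% of the covered bases. The widest of these, chr16:7196300-7230107 with 33808 bases, lay in Rbfox1, and others over 25 kb included those in Tnrc6b, Arid1b, Msi2 and Eepd1, all named after their values were seen. H3K27ac shared a base with 23.2% of the H3K4me1 peaks (22.9 to 23.5), H3K4me3 with 20.4%, GR with 14.8%, Pol2 with 9.04% and CTCF with 4.38%. Seen from the other lists, 84.1% of H3K27ac peaks, 82.4% of H3K4me3 peaks, 65.6% of GR peaks, 57.5% of Pol2 peaks and 53.4% of CTCF peaks lay at least in part under H3K4me1. Peaks with H3K27ac and without H3K4me3, the arrangement usually read as an active enhancer, numbered 7262 (9.62%), had a median of 3556 bases and held 20.97% of the covered bases. Peaks with neither mark numbered 52855 (70.0%) with a median of 1088 bases. Asking for 50% of the H3K4me1 peak to lie under H3K27ac left 1.85%. The H3K27ac peaks had a median of 341 bases, and the part of their width in this fall was not tested. Among peaks with midpoints over 5 kb from a TSS, a choice made after the data were seen, the share with any H3K27ac was 15.2%.

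Sharing with the other lists went with width. In the narrowest 10% of H3K4me1 peaks, 4.59% met H3K27ac and 87.6% met none of the 5 lists. In the widest 10%, of at least 4998 bases, 68.9% met H3K27ac, 49.6% GR, 39.1% H3K4me3 and 31.3% Pol2, and 22.4% met none. A wider peak has more bases in which another peak can fall, and that part of the relation was not separated. The widest 10% were also the most intronic, with 71.9% of midpoints in introns against 48.1% in the narrowest 10%.

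**Figure D5:**
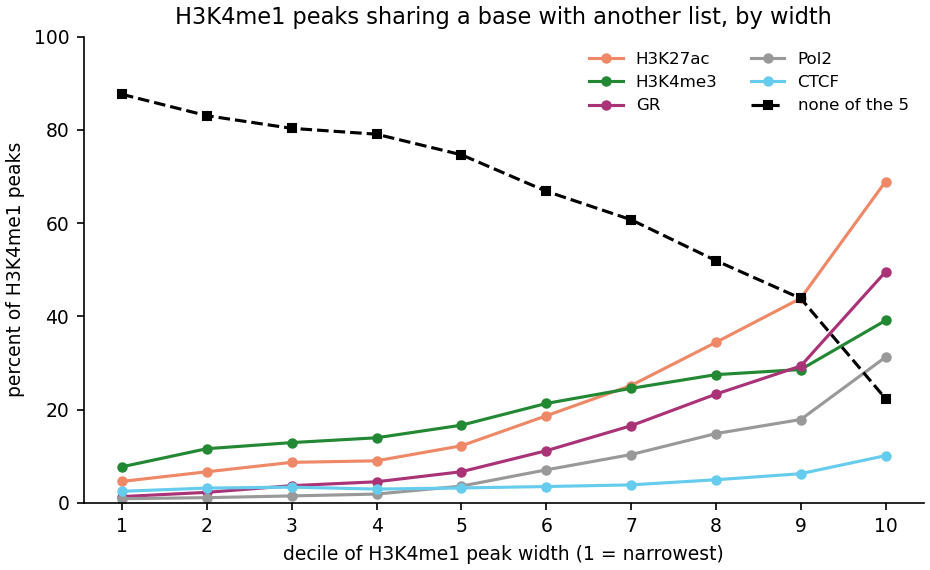
Percent of H3K4me1 peaks that share at least 1 base with each other list (coloured lines) or with none of the 5 (dashed line), by decile of H3K4me1 peak width, about 7552 peaks per decile. The share with H3K27ac runs from 4.59% to 68.9%, and the share with none from 87.6% to 22.4%.

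The DNA under the mark was richer in GC than the genome and poor in CG away from promoters. The median GC content of the peaks was 47.7%, against 41.8% in the genome, and a median of 14.6% of their bases were soft-masked as repeats, against 34.3%. Each peak value here is a median over peaks, whereas each genome value is a single figure for the whole genome. The observed over expected CpG ratio had a median of 0.221, close to the 0.191 of the genome, but 0.462 for peaks within 1 kb of a TSS. It was 0.202 for peaks with H3K27ac and no H3K4me3 and also 0.202 for peaks with neither. In the distal windows printed above it was lower for Foxo1 (0.107), Pax7 (0.0784) and Acta1 (0.114). It was higher for Ppargc1a (0.340) and Fkbp5 (0.291). The H3K4me3 peaks had a median of 0.658. In 300 bases at TSS with H3K4me3, the median ratio was 0.870 where H3K4me1 flanked the site and 0.777 where it covered it.

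Short motifs were counted on both strands in 300-base windows at distal H3K4me1 peaks. These peaks had a midpoint over 5 kb from a protein-coding TSS. The windows at H3K27ac peaks and those outside H3K4me1 peaks were not themselves filtered by distance from a TSS, so some may lie near one. The E-box CAGCTG, a sequence that MYOD and other E-box factors bind, was present in 23.1% (22.2 to 24.1) of 7685 windows at the widest H3K27ac peak inside a distal H3K4me1 peak. It was present in 20.01% (19.6 to 20.4) of 45688 windows in the middle of distal peaks without H3K27ac, in 12.6% (12.3 to 12.8) of 67144 windows 5 kb outside distal peaks, and in 16.4% of 32609 RefSeq promoter windows. Median GC content was 50.3%, 47.0%, 44.3% and 53.0% in these sets, and its part was not tested. The AP-1 type sequence TGANTCA was present in 10.1%, 9.88%, 8.74% and 7.85% of the same windows, and the TEAD type sequence CATTCC in 16.1%, 16.8%, 15.4% and 14.6%. ACANNNTGT, the spaced core that GR binds, was present in 9.45%, 9.60%, 9.93% and 6.90%, and a MEF2 consensus in 4.44%, 6.07%, 5.35% and 3.10%. The GATA type sequence GATAA was present in 27.5%, 32.0%, 37.2% and 25.4%, and the general E-box CANNTG, which includes CAGCTG, in 82.0%, 83.1%, 81.1% and 72.3%. CAGCTG was thus more frequent in the H3K4me1 windows than outside, GATAA less frequent, and the general E-box close in both. A match describes the letters in a window and is not a record of binding.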

How the data were processed

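The deposited H3K4me1 values, made by the authors with Input1 as control, are the start and end of each peak in bases. MACS2, Bowtie 1.0.0, bcl2fastq 2.17.1.14 and the build mm10 are listed in the submitters' processing notes with no role or threshold. Depth and calling mode: not given in the sources used here. All other lists were read as start and end too, and their rows off chromosomes 1 to 19 and X were left out. Coverage, distances and overlaps (at least 1 shared base) were computed with Python 3.11.15, numpy and pandas against GENCODE M21 on GRCm38, and tested on simulated data, where 4000 of 4000 queries matched a direct count. RefSeq GRCm38.p6 gave sequences and an alternative annotation. A peak went to 1 class by its midpoint: within 1 kb of a protein-coding TSS, else exon, intron or intergenic. Members and gene lists were chosen with earlier results of these data known. Genes named are 26 fixed genes, the first 10 by covered bases, percent or length without the mark, genes at the 10 widest peaks and extreme regions, and in each list the top 3 and those with none. The 21 lists matched 323 gene models, and the symbol Tf matched none. No test was run. Alternatives are given in the closing section. A few genes that this rule selects are not reported here.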

Additional observations from a re-analysis of the deposited data

How the results depend on the processing

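With 1 library, no replicate could be left out. No paired analysis was possible because each group has 1 sample and no result comes from a test. Depth is unknown, so absence of a peak is absence from the list at this depth. The median width became 1627 bases for peaks of at least 500 bases and 1595 bases with peaks at most 2 kb apart joined, which also gave 3840 peaks of at least 10 kb and 73.0% of H3K4me3 start sites covered. That joining, and the use of peaks with midpoints over 5 kb from a TSS below, were chosen after seeing the data. The covered share was 50.9% with H3K4me3 over the TSS itself. The share of peaks within 1 kb of a TSS was 21.9% by any base, 28.6% within 5 kb, 20.1% with starts of all annotated genes, 13.9% with RefSeq and 14.6% in the widest 50%. Introns held 62.4% of covered bases, 50.2% of peaks with protein-coding genes only and 57.3% of the widest 50%, and intergenic DNA 18.5%, 30.7% and 20.8%. Genes under 10% of the body covered numbered 11789. The median of the body covered was 8.93% with 5 kb added on each side and 5.38% with peaks of at least 1000 bases. H3K27ac met 1.85% at 50% coverage, 28.4% within 1 kb, 38.2% of the widest 50% and 15.2% over 5 kb from a TSS. Windows without the mark were 22.2% at 500 kb and 18.1% with peaks of at least 1000 bases. The CpG ratio was 0.216 in the central 300 bases. Over the gene lists, the counts that moved by more than 1.5 times are given beside those lists.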
